A study of Homo sapiens with 28 samples.

Results

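Total RNA of Jurkat cells collected 2 h after activation was compared with total RNA of unactivated Jurkat cells, over all 7485 genes of the deposited table. Jurkat is a human T cell leukaemia line. The activated cells received phorbol myristate acetate (PMA, 0.5 µg/ml), a small molecule that switches on protein kinase C, together with phytohaemagglutinin (PHA, 2 µg/ml), a lectin that engages surface glycoproteins, the T cell receptor among them. The unactivated cells were of the same line, grown in the same medium (RPMI1640), without activation. Each group held 3 samples, named as biological replicates in the study's design. Changes are taken between these 6 of the study's 28 samples, but the spread in the test was pooled over all total RNA groups. Total RNA at 1 h (2 samples) and at 3 h and 4 h (3 samples each) therefore also entered every p-value. These hours are also set beside the comparison. Newly made RNA labelled with 4-thiouridine (4sU) in unactivated and 2 h cells (3 samples each) is used only beside it. The spread for labelled RNA was likewise pooled over the labelled groups, those at 1 h, 3 h and 4 h included. PMA and PHA together stand in for antigen and do not pass through an antigen-presenting cell, and all samples came from a single leukaemia line.

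A T cell that meets antigen switches on protein kinase C, the Ras and MAP kinase cascade, NF-kB and the calcium-driven factor NFAT. The first genes to respond encode transcription factors, followed by phosphatases and inhibitors that dampen the same cascades, survival factors, receptors and cytokines. Genes that belong to the precursor or resting state are turned down at the same time. Total RNA holds old and new transcripts together, so a level in it reflects both synthesis and decay.

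All values below are the authors' group means ± SD on their normalised expression scale (n = 3 in each group, 2 at 1 h). Values of single samples did not enter the tests, and the read depth behind them is not stated. At 1 h, where there are 2 samples, a mean and SD fix both values, which served only to check the SD. Because a sample among 3 cannot lie more than 1.15 SD from their mean, each mean and SD also bounds its samples, and groups whose bounds are apart cannot overlap. Changes are differences of log2(value + 1), given ± standard error; adding 1 makes the changes of low genes look smaller than they are. A gene is called, and said to have risen or fallen, when its adjusted p from limma lay below 0.05 over all genes. In bulk RNA, fewer cells expressing a gene and less RNA per cell cannot be told apart. The median coefficient of variation was 7.91% before activation and 6.37% at 2 h, and it was highest among the total RNA groups at 3 h, at 11.2%. Jurkat markers were present: 9 of 15 listed genes were in the table, with summed means of 3341 before activation and 3453 at 2 h, led by PTPRC, CD3D and LCK, and CD28 alone was called. Of 31 listed markers of other blood and stromal cells, VIM, AIF1, VCAN and THY1 were in the table. None of these 4 was called by limma (VCAN alone had an unadjusted p under 0.05), and their summed means were 525 and 587. Listed genes outside the table, FOS, EGR1, IL2 and CD69 among them, were not analysed here.

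In all, 995 of 7485 genes (13.3%) were called at 2 h. Of these, 727 rose (9.71% of all genes) and 268 fell (3.58%). At an unadjusted p under 0.05 the counts were 1457 and 527. The samples of the groups cannot overlap for 1547 genes higher at 2 h (20.7%) and for 621 lower at 2 h (8.3%), and this held for 716 of the genes that rose and 264 of those that fell. The bounds come from the same means and SDs as the calls, so they are no separate support for a called gene. The median change was 0.47 among the genes that rose, −0.52 among those that fell and 0.07 over all genes. Most called changes were small: 417 rises lay under 0.5 and 124 falls lay above −0.5. A rise of at least 1 was seen in 68 genes, of at least 2 in 20 and of at least 4 in 5, while 18 genes fell by 1 or more and 0 by 2 or more. The share of called genes that rose, 73.1%, depended on the scaling. When each group was centred on its median gene, 441 genes rose and 437 fell. Quantile normalisation left 433 rises and 387 falls.

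**Figure D1:**
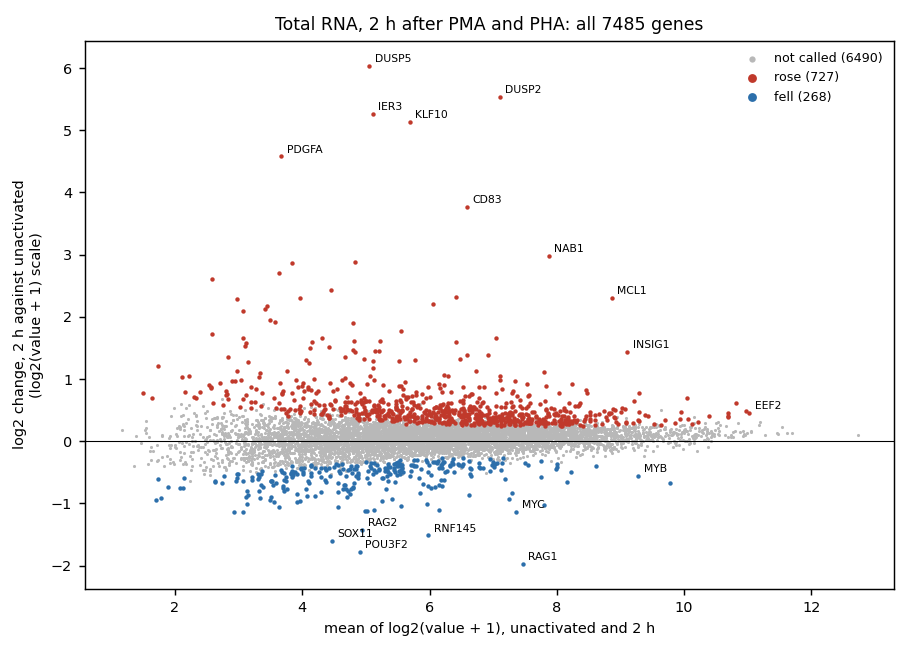
Log2 change in total RNA at 2 h against unactivated cells (y axis, log2(value + 1) scale) by mean log2 level (x axis) for all 7485 genes, with 727 genes that rose in red, 268 that fell in blue and the rest in grey. The genes DUSP5, DUSP2, IER3, KLF10 and PDGFA lie above 4, and the largest fall, RAG1, is at −1.97.

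Feedback phosphatases of the MAP kinases gave the largest rises. DUSP5, a nuclear phosphatase that removes phosphate from ERK, went from 3.10 ± 0.967 to 268 ± 31.8 (SD, n = 3 each). No unactivated sample can have exceeded 4.21 and no 2 h sample can have been under 231, so the groups are far apart. The ratio of means was 86.6, and the log2 change was 6.04 ± 0.14 (limma, adjusted p = 5.12e-16). DUSP2, a related nuclear phosphatase of ERK and p38, went from 19.2 ± 2.90 to 936 ± 28.2, a log2 change of 5.54 ± 0.11 (limma, adjusted p = 3.94e-18). SPRY2, a Sprouty inhibitor of receptor signalling to Ras, went from 6.00 ± 0.199 to 33.5 ± 2.54, and SPRED1, a relative that holds Ras back through neurofibromin, from 23.7 ± 3.82 to 48.1 ± 4.58. With PHLDA1, 5 of the 11 measured members of this list rose and 0 fell by limma (also 0 at an unadjusted p under 0.05). The list's median change was 0.48 beside 0.07 over all genes. Not called were DUSP1, DUSP3, DUSP7, DUSP14, ERRFI1 and SPRY1.

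On the list of immediate early transcription factors, 11 of 15 measured members rose, 2 fell and 2 were not called, with a median change of 0.90. The list also holds early genes of other kinds, IER3 and BTG1 among them. IER3, an early response gene that acts on survival and ERK signalling, rose from 4.59 ± 0.504 to 213 ± 5.94, a log2 change of 5.26 ± 0.11 (limma, adjusted p = 6.58e-18). KLF10, a zinc finger repressor first known as a TGF-beta early response gene, rose from 7.70 ± 2.39 to 305 ± 18.0 (5.14 ± 0.19). JUNB, which pairs with FOS proteins in AP-1, rose from 9.40 ± 2.04 to 76.0 ± 1.87 (2.89 ± 0.13). In all of these 3 genes the 2 h samples cannot overlap the unactivated ones, as in 716 of the 727 genes that rose. CSRNP1, ID3, ID1, FOSL2, SRF, BTG1, IER5 and MAFK also rose, by between 0.63 and 2.17 on the log2 scale. The 2 members that fell were MYC, the growth-driving transcription factor, from 243 ± 5.94 to 110.1 ± 3.78 (−1.13 ± 0.11, limma, adjusted p = 5.08e-07), and NFIL3, a bZIP repressor, from 52.1 ± 6.89 to 26.2 ± 0.163 (−0.96 ± 0.12). MYC is often induced by activation of resting T cells, and here its level at 2 h was 45.4% of the level before activation.

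**Figure D2:**
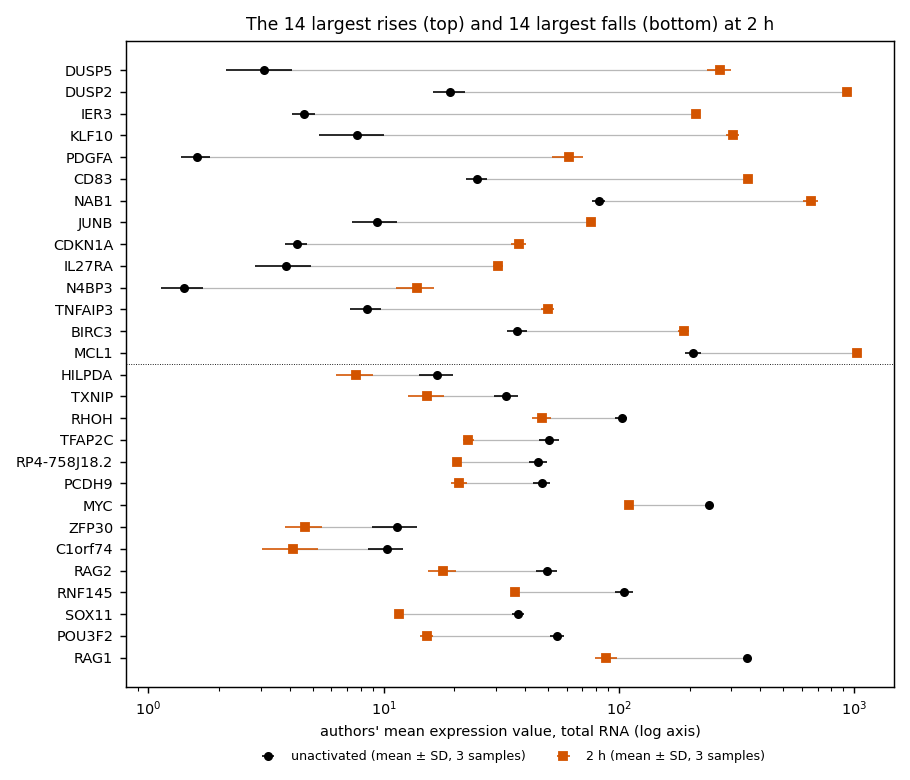
Mean ± SD of the 14 largest rises and the 14 largest falls among called genes, before activation (black circles) and at 2 h (orange squares), on a log axis of the authors' expression value (3 samples in each group). The distance between the symbols is the ratio of means; it is 86.6 for DUSP5, at the top, while RAG1, at the bottom, kept 25.3% of its level.

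The 14 largest rises also held a growth factor, a co-repressor and a cell cycle inhibitor. PDGFA, the A chain of platelet-derived growth factor, was at 1.60 ± 0.231 before activation and reached 61.3 ± 9.36, a log2 change of 4.58 ± 0.12 (limma, adjusted p = 5.12e-16). NAB1, which binds EGR factors and represses their targets, went from 82.3 ± 5.15 to 656 ± 48.2, with a log2 change of 2.98 ± 0.09 (limma, adjusted p = 3.43e-15). CDKN1A, the p21 inhibitor of cyclin-dependent kinases, went from 4.28 ± 0.457 to 37.6 ± 2.91 (2.87 ± 0.12). The 2 h samples of these 3 genes all lie above every unactivated sample, as in 716 of the 727 genes that rose. N4BP3, a binding partner of the ubiquitin ligase NEDD4, rose from 1.42 ± 0.287 to 13.8 ± 2.57 (2.62 ± 0.18).

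RefSeq promoter sequences (build GRCh38.p14) are shown for 4 of the largest rises and the 2 largest falls, to set genes that rose furthest beside genes that fell furthest. DUSP5 and IER3 had no entry. Each line gives the stretch before the first listed start that holds no annotated exon, 5′ to 3′ on the gene's strand, with motif matches in capitals. The promoters are chr2:96145441-96145601 (minus strand) for DUSP2, chr7:520297-520390 (minus strand) for PDGFA, chr6:14117006-14117255 (plus strand) for CD83, chr2:190648645-190648894 (plus strand) for NAB1, chr11:36510273-36510352 (plus strand) for RAG1 and chr6:98834324-98834573 (plus strand) for POU3F2.
DUSP2: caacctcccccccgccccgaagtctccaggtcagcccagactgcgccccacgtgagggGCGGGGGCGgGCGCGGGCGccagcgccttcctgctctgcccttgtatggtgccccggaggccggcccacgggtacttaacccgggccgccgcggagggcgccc
PDGFA: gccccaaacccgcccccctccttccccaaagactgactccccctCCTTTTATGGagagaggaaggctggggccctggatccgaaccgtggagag
CD83: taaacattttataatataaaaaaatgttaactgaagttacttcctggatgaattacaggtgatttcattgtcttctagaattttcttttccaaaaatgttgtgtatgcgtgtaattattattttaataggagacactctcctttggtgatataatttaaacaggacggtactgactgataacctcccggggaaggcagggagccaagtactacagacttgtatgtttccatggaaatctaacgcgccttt
NAB1: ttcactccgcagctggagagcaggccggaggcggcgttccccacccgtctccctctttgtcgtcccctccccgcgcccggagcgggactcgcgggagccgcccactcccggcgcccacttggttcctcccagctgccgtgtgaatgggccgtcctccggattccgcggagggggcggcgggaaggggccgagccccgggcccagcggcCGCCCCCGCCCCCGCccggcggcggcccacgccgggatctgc
RAG1: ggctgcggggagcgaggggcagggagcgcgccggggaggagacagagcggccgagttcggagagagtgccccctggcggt
POU3F2: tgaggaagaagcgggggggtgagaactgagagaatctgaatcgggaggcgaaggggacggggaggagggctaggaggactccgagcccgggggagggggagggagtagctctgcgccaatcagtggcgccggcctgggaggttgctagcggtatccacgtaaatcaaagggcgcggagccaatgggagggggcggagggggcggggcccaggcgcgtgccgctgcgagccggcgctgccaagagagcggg
The motifs searched on both strands of the 250 bases before the start were EGR as GCGNGGGCG, CRE as TGACGTCA, AP-1 as TGANTCA, and NF-kB and the SRF-binding CArG box by their consensus. DUSP2 held 2 EGR matches, GCGGGGGCG and GCGCGGGCG, and NAB1 held 2 overlapping EGR matches on the strand opposite to the printed one. PDGFA held the CArG match CCTTTTATGG, and 2 EGR matches of its window lie outside the printed stretch. CD83, RAG1 and POU3F2 held no match in these windows. Only the first listed start of a gene was searched, and 2726 further promoter entries of the measured genes were left out. A gene without a match here may hold one at another start. Which start Jurkat cells use was not tested.
Over the 5842 genes with a promoter, 13.4% held an EGR match, against 17.8% of the genes that rose, 10.6% of those that fell and 34.5% (19 of 55) of those that rose by at least 1. For NF-kB the shares were 5.43%, 7.75%, 5.53% and 20% (11 of 55). In the same order, CRE matches were in 3.44%, 4.58%, 1.51% and 7.27% (4 of 55), AP-1 matches in 3.29%, 3.35%, 3.52% and 3.64% (2 of 55), and CArG matches in 0.941%, 1.58%, 0.503% and 1.82% (1 of 55). These shares describe letters in a window and were not tested.

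NF-kB targets and the proteins that shut NF-kB off rose in 12 of 17 measured members, and 0 fell (also 0 at an unadjusted p under 0.05). The list's median change was 0.63, and 10 members were up after median centring. CD83, found on the surface of mature dendritic cells and activated lymphocytes, went from 24.97 ± 2.45 to 353 ± 10.1 (SD, n = 3 each), and its groups cannot overlap. The log2 change was 3.77 ± 0.10 (limma, adjusted p = 5.12e-16). TNFAIP3, the A20 enzyme that edits ubiquitin on NF-kB activators, rose from 8.48 ± 1.26 to 50.04 ± 3.19 (2.43 ± 0.13). NFKBIA, whose protein traps NF-kB outside the nucleus, rose from 15.0 ± 1.94 to 47.9 ± 4.72 (1.61 ± 0.12). BIRC3, an inhibitor of apoptosis that also acts in NF-kB signalling, rose from 37.0 ± 3.57 to 189 ± 9.58 (2.32 ± 0.10). The subunits REL and NFKB1 and the inhibitors NFKBIE and NFKBIB rose too, by 1.44, 0.77, 0.94 and 0.63, while RELA was not called at 0.10.

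Surface markers and secreted factors of T cell activation were mostly outside the table, with 9 of 53 measured. Of these, 5 rose and 0 fell by limma, with 1 fall at an unadjusted p under 0.05. IL27RA, a receptor chain for interleukin-27, went from 3.87 ± 1.03 to 30.7 ± 1.41 (2.70 ± 0.17, limma, adjusted p = 7.1e-10). CD82, a tetraspanin, rose from 10.7 ± 0.809 to 20.8 ± 1.27, CD55, which protects cells from complement, by 0.66, and TGFB1, the cytokine TGF-beta 1, from 3.43 ± 1.24 to 6.99 ± 0.340; the TGFB1 call was lost on the linear scale (limma, adjusted p = 0.223). FAS was not called at 0.30, IL2RG at 0.28, TFRC at 0.18 and PTGER4 at −0.41.

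Among the T cell receptor chains and the proteins that signal next to them, 10 of 35 measured members rose and 2 fell, with a median change of 0.11 near the 0.07 of all genes. Median centring gave 7 rises and 4 falls here, and quantile normalisation gave 8 and 3. Adaptors led the rises. SIT1, a transmembrane adaptor that restrains receptor signalling, rose from 20.4 ± 3.02 to 64.2 ± 4.67 (1.61 ± 0.13). LCP2, the SLP-76 scaffold, rose from 21.9 ± 1.502 to 50.9 ± 3.22 (1.18 ± 0.14), and TRAT1, which stabilises the receptor at the surface, from 105 ± 7.70 to 187 ± 13.3 (0.83 ± 0.10). GRAP, an adaptor between receptors and Ras, rose from 13.5 ± 0.812 to 21.8 ± 2.72. Both members that fell act downstream of the receptor: RASGRP1, which loads Ras with GTP, went from 149 ± 7.97 to 117 ± 10.96, and THEMIS, which tunes signalling in thymocytes, from 158 ± 6.28 to 123 ± 5.92. CD28, the co-stimulatory receptor, rose from 28.2 ± 4.05 to 36.4 ± 1.31 (0.36 ± 0.11, limma, adjusted p = 0.0321), a call lost with median centring (limma, adjusted p = 0.128) and with quantile normalisation.

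Of 21 measured NFAT and calcineurin genes of the calcium arm, 1 rose (4.76%, beside 9.71% of all genes) and 0 fell (beside 3.58%). At an unadjusted p under 0.05, 4 were higher and 0 lower. The called gene was NFATC1, the NFAT member with an inducible promoter, from 6.91 ± 0.813 to 12.6 ± 1.62 (0.78 ± 0.22, limma, adjusted p = 0.0262). The NFATC1 call was lost with median centring (limma, adjusted p = 0.0543) and on the linear scale. Its samples cannot overlap, a bound that rests on the same means and SDs as the call. RCAN1, a calcineurin inhibitor, was at −0.06 and not called. The list's median of 0.04 became −0.05 with median centring, while that of all genes went from 0.07 to −0.02.

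The largest fall was in an enzyme of antigen receptor rearrangement. RAG1, one of the enzymes that cut antigen receptor genes, went from 349 ± 5.96 to 88.5 ± 9.52, so 25.3% of the level remained. The lowest unactivated sample was at least 343 and the highest 2 h sample at most 99.5. The log2 change was −1.97 ± 0.10 (limma, adjusted p = 1.44e-11). RAG2, its partner, went from 49.5 ± 5.21 to 17.8 ± 2.39 (−1.42 ± 0.16, limma, adjusted p = 2.37e-06). Of the 8 measured genes of V(D)J recombination, LIG4, the ligase that closes the cuts, was the only other one called, from 100.4 ± 6.51 to 83.5 ± 1.85 (−0.26 ± 0.08, limma, adjusted p = 0.043), and 0 rose (also 0 at an unadjusted p under 0.05). The LIG4 call was lost with a constant prior variance (limma, adjusted p = 0.0526). The repair genes XRCC5, XRCC6, PRKDC, DCLRE1C and POLM were not called.

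Transcription factors of T cell identity were split, with 5 of 28 measured members up, 4 down and a median of 0.01 that turned to −0.08 with median centring. The falls were in SOX11, from 37.3 ± 2.29 to 11.7 ± 0.280, IKZF2 (Helios), from 209 ± 3.65 to 117 ± 10.0, MYB, from 753 ± 25.6 to 512 ± 11.4, and IKZF1 (Ikaros), from 355 ± 20.8 to 252 ± 6.92. In each of these 4 genes the 2 h samples lie below all unactivated ones, as in 264 of the 268 genes that fell. MYB is a factor of blood progenitors and thymocytes. The rises were led by ID3, which blocks E proteins, from 3.07 ± 1.08 to 16.4 ± 0.983 (2.10 ± 0.17), RUNX3, a factor of the cytotoxic lineage, from 5.13 ± 1.07 to 22.1 ± 4.47, and PRDM1 (Blimp-1), from 2.03 ± 0.225 to 5.195 ± 0.570. DTX1, a Notch pathway ubiquitin ligase, and SOX4 rose by 0.60 and 0.48. RUNX3, PRDM1 and DTX1 were not called on the linear scale, and quantile normalisation gave 5 up and 7 down. LEF1, TCF7, ETS1, TOX and GFI1 were not called.

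Other large falls were spread over functions. POU3F2, a POU-domain factor best known from neurons, went from 54.5 ± 3.69 to 15.2 ± 0.982 (−1.78 ± 0.12, limma, adjusted p = 1.1e-09). RNF145, a ubiquitin ligase of the endoplasmic reticulum that acts in sterol control, went from 106 ± 9.14 to 36.3 ± 0.800 (−1.51 ± 0.09, limma, adjusted p = 2.64e-10). RHOH, a haematopoietic GTPase without GTP hydrolysis, fell from 103 ± 5.98 to 47.2 ± 4.33, and TXNIP, an inhibitor of thioredoxin and glucose uptake, from 33.2 ± 3.89 to 15.4 ± 2.70. PCDH9 (a protocadherin), TFAP2C (an AP-2 factor), ZFP30 (a KRAB zinc finger protein), C1orf74 and the transcript RP4-758J18.2 fell by between 1.11 and 1.15 on the log2 scale. In every one of these 9 genes the 2 h samples lie below all unactivated samples, as in 264 of the 268 genes that fell.

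Receptors of adhesion and trafficking moved both ways, with 7 of 17 measured up and 2 down. CXCR4, the receptor for the chemokine CXCL12, fell from 316 ± 31.4 to 155 ± 9.46 (−1.03 ± 0.10, limma, adjusted p = 3.1e-07). SELPLG, the ligand that lets leukocytes roll on selectins, fell from 86.4 ± 5.84 to 51.4 ± 5.04 (−0.74 ± 0.11). ITGA5, the integrin chain that binds fibronectin, rose from 4.71 ± 1.17 to 12.9 ± 0.825 (1.28 ± 0.15), and EVL, an actin regulator at cell contacts, from 33.5 ± 6.03 to 62.9 ± 6.37. CD6, ITGB2 and SPN rose by 0.49, 0.48 and 0.37. ICAM2 rose from 28.5 ± 4.79 to 40.4 ± 2.82, a call that was lost with median centring (limma, adjusted p = 0.0733), where 4 members of the list were up.

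Among apoptosis regulators 10 of 26 measured members rose, 16 were not called and 0 fell by limma (1 at an unadjusted p under 0.05), with a median of 0.13. MCL1, a short-lived BCL2 relative that blocks cell death, rose from 208 ± 16.8 to 1032 ± 22.2 (2.31 ± 0.09, limma, adjusted p = 1.44e-13) and its samples cannot overlap. CFLAR, which blocks caspase-8, rose from 16.5 ± 3.67 to 33.5 ± 4.72. The rises were not all in survival factors: TNFRSF10B, a death receptor for TRAIL, rose from 15.9 ± 4.18 to 28.6 ± 1.84, and BIK, which promotes death, rose by 0.49 beside BCL2L1 at 0.40. BCL2 was not called at 0.40, nor was BCL2L11 at −0.47. On the p53 target list 5 of 14 rose and 0 fell (also 0 at an unadjusted p under 0.05), with CDKN1A first, then RBM38, an RNA-binding protein, from 11.6 ± 1.07 to 35.1 ± 1.81, and ZMAT3, from 40.6 ± 1.27 to 59.2 ± 3.73, which was not called on the linear scale. MDM2, a defining p53 target, was not called at 0.15. Jurkat cells are known to lack working p53.

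On the list of the unfolded protein response and the integrated stress response, 12 of 35 measured members rose and 0 fell (1 at an unadjusted p under 0.05), with 8 up and 1 down after median centring. PPP1R15A, which recruits the phosphatase that reverses eIF2α phosphorylation, rose from 13.4 ± 0.686 to 52.6 ± 3.09 (1.90 ± 0.12, limma, adjusted p = 4.97e-10), and its constitutive relative PPP1R15B from 119 ± 5.51 to 205 ± 20.5. ERO1LB, an oxidase of the endoplasmic reticulum, rose from 9.64 ± 1.37 to 20.04 ± 0.515. ATF4, XBP1 and TRIB3 rose by 0.52, 0.52 and 0.51. HSPA5, the BiP chaperone, went from 270.2 ± 45.1 to 463 ± 102 (0.77 ± 0.21, limma, adjusted p = 0.0205), and its call was lost when the spread came from the compared groups alone (limma, adjusted p = 0.0535). Chaperones as a list gave 8 of 34 up and 2 down, but 5 up and 2 down with median centring and 3 up and 3 down with quantile normalisation. HSPA1B, an inducible HSP70 nearly identical to HSPA1A and so uncertain in the counting, fell from 11.4 ± 1.498 to 5.19 ± 0.865, and BAG2, a co-chaperone, from 262 ± 12.4 to 176 ± 1.09, whereas DNAJB1, an HSP40, rose from 80.8 ± 4.70 to 110.4 ± 7.50.

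Of the metabolic lists, glucose use gave 5 rises among 27 measured genes and 0 falls, also at an unadjusted p under 0.05. SLC2A3, the high-affinity glucose carrier GLUT3, rose from 4.76 ± 0.880 to 21.2 ± 0.768 (1.95 ± 0.13, limma, adjusted p = 2.7e-09). PFKFB3, which makes the activator of phosphofructokinase, rose from 42.1 ± 2.66 to 65.4 ± 5.93, HK2, a hexokinase, from 129.7 ± 2.63 to 174 ± 5.58, and PFKP, a phosphofructokinase, from 204 ± 10.9 to 271 ± 7.80. GAPDH was not called at 0.16 ± 0.10 (limma, adjusted p = 0.327), nor was SLC2A1 at 0.43. Sterol genes rose in 6 of 23 and fell in 0, also at an unadjusted p under 0.05. INSIG1, which retains the sterol sensor in the endoplasmic reticulum, rose from 333 ± 12.5 to 907 ± 19.4 (1.44 ± 0.08, limma, adjusted p = 1.25e-10), STARD4, a cholesterol carrier, from 84.9 ± 4.55 to 138 ± 2.87, and the pathway enzymes IDI1 and HMGCS1 from 166 ± 19.1 to 229.8 ± 14.8 and from 80.7 ± 4.30 to 108 ± 4.00. SQLE was not called. The amino acid carriers SLC7A5, SLC38A2, SLC7A11, SLC1A5 and SLC3A2 rose, while CARS was the only tRNA synthetase called, so that 6 of 30 genes on that list rose and 0 fell, whichever p was used. SLC38A2, a glutamine carrier, went from 199 ± 8.16 to 341 ± 18.2 (0.78 ± 0.10). SLC7A5 and SLC7A11 were not called on the linear scale. Among 15 hypoxia targets VEGFA and KDM3A rose and HILPDA, a lipid droplet protein, fell from 16.9 ± 2.81 to 7.62 ± 1.36; median centring gave 3 falls on that list.

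Of 89 measured ribosome biogenesis factors, 20 rose, 69 were not called and 0 fell (45 and 1 at an unadjusted p under 0.05), and no called change exceeded 0.51, that of PNO1, a factor of the small subunit, from 87.9 ± 12.3 to 126 ± 6.64. The list's median was 0.23 beside 0.07 over all genes. The count of rises was 12 under median centring, and quantile normalisation left 8. BYSL, UTP3 and RIOK1 rose by 0.50, 0.49 and 0.49. Few genes of the ribosome itself were called: 1.19% rose and 1.19% fell, beside 9.71% and 3.58% of all genes. Of 84 genes with a ribosomal protein prefix, RPS26 fell from 20.2 ± 2.40 to 13.8 ± 1.75, and the one that rose, RPS6KA5, encodes a kinase and not a subunit. The 58 mitochondrial ribosomal proteins had 0 called genes by limma, with 1 higher and 1 lower at an unadjusted p under 0.05; either recentred scaling gave 1 fall. Respiratory chain genes had 1 of 66 called, the assembly factor NDUFAF4, and the proteasome 2 of 33, PSMD11 and PSMC4. These 3 calls were lost under median centring and quantile normalisation.

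Few cell cycle genes were called, beside 9.71% of all genes that rose and 3.58% that fell. In the S phase list 3 of 55 rose (5.45%) and 1 fell (1.82%). In the G2 and mitosis list 1 of 66 rose (1.52%) and 0 fell, with 8 higher and 5 lower at an unadjusted p under 0.05. The medians of 0.05 and 0.00 became −0.04 and −0.09 with median centring, while that of all genes went from 0.07 to −0.02. The G2 and mitosis calls turned from rises to falls with the scaling: median centring left 0 rises and 5 falls, quantile normalisation 0 rises and 4 falls, and the S phase list gave 2 up and 2 down under both. RRM2, the ribonucleotide reductase subunit, rose from 265 ± 23.3 to 404 ± 31.8 (0.61 ± 0.09, limma, adjusted p = 5.2e-05), and E2F7, a repressing E2F, fell from 49.6 ± 3.42 to 31.5 ± 1.57 (−0.64 ± 0.12, limma, adjusted p = 0.00102). GINS3 rose by 0.34. E2F3 and AURKB, at 0.47 and 0.42, were called only before recentring. Among clustered histone genes 2 of 38 fell, HIST1H2AL and HIST1H2AB, and 0 rose (1 at an unadjusted p under 0.05); histone genes are near-identical copies, so their counts are uncertain.

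Proteins that bind AU-rich elements or carry out mRNA decay had 6 rises (8.33%, beside 9.71% of all genes) and 1 fall (1.39%, beside 3.58%) among 72 measured genes, shares that were not above those of all genes. Quantile normalisation gave 3 rises and 2 falls. ZC3H12A (Regnase-1), a nuclease that cuts immune mRNAs, rose from 2.55 ± 1.16 to 16.4 ± 1.43 (2.29 ± 0.23, limma, adjusted p = 1.08e-06). BTG1 and BTG3, which recruit deadenylases, rose from 11.7 ± 2.14 to 21.7 ± 2.23 and from 37.5 ± 2.84 to 62.0 ± 3.78. DCP1B, a decapping cofactor, fell from 8.74 ± 0.934 to 5.27 ± 0.750. ELAVL1, the gene of HuR, the RNA-binding protein that the study is about, went from 131 ± 6.57 to 132 ± 2.18 and was not called (0.01 ± 0.09, limma, adjusted p = 0.978), and its groups can overlap. The authors' deposited table marks genes as HuR targets in 3 ways. Targets by iCLIP, a method that crosslinks a protein to its RNA, were 19.4% of all genes, 24.6% of those that rose (179 of 727) and 16.0% of those that fell (43 of 268). The 3′ UTR call was given in the authors' deposited table for 7124 genes, 709 of the rises and 248 of the falls. Its target shares of these were 61.0%, 66.7% and 56.0%. The third call was given for only 5017 genes, 521 of the rises and 132 of the falls, with shares of 11.6%, 17.7% and 8.33%. The HuR calls were made by the authors, and the shares were not tested here.

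In the list of SRF and its cytoskeletal targets, 9 of 35 measured members rose and 0 fell (2 at an unadjusted p under 0.05). SRF, the factor that drives many of them, went from 53.7 ± 4.11 to 101 ± 6.96 (0.90 ± 0.09, limma, adjusted p = 1.35e-06). TPM4, a tropomyosin, rose from 218 ± 15.2 to 412 ± 24.2, FLNA, which crosslinks actin, from 469.6 ± 70.5 to 738 ± 39.7, and ACTN1, an actinin, from 35.9 ± 2.09 to 57.1 ± 4.96. CORO1A, ACTG1, PFN1 and MYH9 rose by 0.63, 0.62, 0.54 and 0.46. ACTB, often used as a reference gene, went from 1436 ± 61.9 to 1879.5 ± 63.5 (0.39 ± 0.12, limma, adjusted p = 0.0316). The ACTB call was lost with median centring (limma, adjusted p = 0.115), quantile normalisation, the linear scale and a constant prior variance. Its samples cannot overlap, as in 1547 genes higher at 2 h (20.7% of all genes), GAPDH among them, which was not called. ACTN1 was not called on the linear scale.

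Regulators of small GTPases moved both ways, with 9 of 43 up and 3 down. RASA2, which switches Ras off, rose from 50.6 ± 5.65 to 97.1 ± 6.36, RASSF5, a Ras and Rap effector in adhesion, from 67.0 ± 3.00 to 124 ± 10.6, and ARHGEF2, a guanine nucleotide exchange factor, from 41.2 ± 1.53 to 64.4 ± 3.82. RASAL3 rose from 4.26 ± 1.14 to 8.23 ± 1.26 and was not called on the linear scale. Next to RHOH and RASGRP1, ARHGAP25, which switches Rac off, fell from 16.3 ± 2.02 to 8.97 ± 0.700. In the TGF-beta list 9 of 25 rose and 3 fell. The rises were in KLF10, ID3 and ID1, in the co-repressors SKIL, from 18.9 ± 3.34 to 48.7 ± 3.18, and TGIF2, from 28.3 ± 4.50 to 70.5 ± 2.46, in the receptor TGFBR2 (1.00), in TGFB1 and in the ubiquitin ligases SMURF1 and SMURF2 (0.65 and 0.31). The falls were in the signal carriers SMAD3, from 18.2 ± 1.90 to 12.6 ± 1.33, and SMAD5, from 144 ± 1.98 to 110.4 ± 3.92, and in LDLRAD4, an inhibitor of the pathway, from 294 ± 8.76 to 217 ± 12.8.

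Zinc finger genes with the prefix ZNF, many of which encode KRAB repressors of repeat elements, were the largest list with more falls than rises. Of 239 measured, 49 fell (20.5%, beside 3.58% of all genes) and 18 rose (7.53%, beside 9.71%), with a median of −0.13. Median centring gave 65 falls and 11 rises, and quantile normalisation 57 and 11. ZNF555 fell from 15.5 ± 1.07 to 7.36 ± 1.90, ZNF248 from 20.2 ± 3.48 to 9.82 ± 0.361 and ZNF449 from 14.6 ± 1.25 to 7.36 ± 0.972. The largest rises were in ZNF101, from 70.7 ± 3.09 to 156 ± 4.13 (1.13 ± 0.10, limma, adjusted p = 7.33e-08), and ZNF275, from 8.16 ± 1.34 to 19.02 ± 1.93. Many ZNF genes lie in clusters on chromosome 19 and share sequence, so reads could be split between relatives in the authors' counting. Among genes placed by RefSeq, the share that fell was 19.1% of 94 ZNF genes on chromosome 19 and 22.9% of 118 on other chromosomes, while 0.995% of the 201 other genes on chromosome 19 fell. These shares do not measure shared sequence, and the part of split reads in the falls was not tested.

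**Figure D3:**
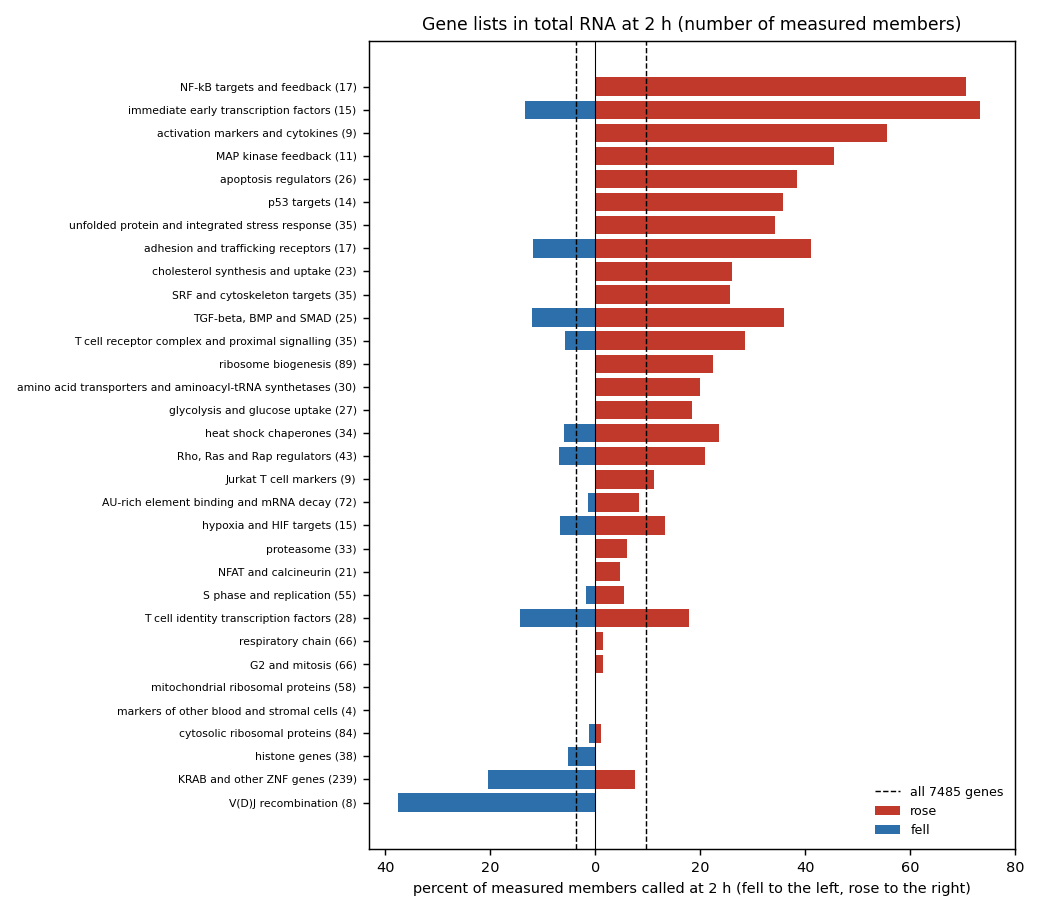
Percent of the measured members of each of 32 gene lists that fell (blue, to the left) or rose (red, to the right) in total RNA at 2 h, with the number measured in brackets and dashed lines at the shares of all genes, 3.58% and 9.71%. NF-kB targets and immediate early factors reach furthest to the right, and V(D)J recombination (3 of 8) and ZNF genes (49 of 239) furthest to the left.

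The most abundant called genes by the authors' RPKM, a length-scaled density on which genes can be compared, were EEF2, HSP90B1, ACTB, LCP1 and SFPQ. EEF2, which moves the ribosome along mRNA, was at 3805 RPKM and went from 1773 ± 52.0 to 2433 ± 124 (0.46 ± 0.09, limma, adjusted p = 0.000965). LCP1, an actin bundler of leukocytes, went from 1432 ± 46.3 to 1901 ± 49.4, SFPQ, a nuclear RNA-binding protein, from 1166 ± 56.0 to 1548 ± 145, and HSP90B1, a chaperone of the endoplasmic reticulum, from 1415 ± 127 to 1935 ± 158. All 5 were lost with quantile normalisation, where the adjusted p was 0.133 for EEF2 and 0.12 for LCP1 (limma).

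The hours around 2 h place these changes in time. From 1 h to 2 h, 132 genes rose (1.76%) and 82 fell (1.1%), and from 2 h to 3 h 295 rose (3.94%) and 279 fell (3.73%). These comparisons share the 2 h samples with the main one, so each gene's levels are given side by side. A first set of genes was flat at 1 h, with a log2 change under 0.25 in size, and moved by 2 h. ID1, a blocker of E proteins, was at 9.22 ± 1.76, 10.4 ± 0.466 and 30.0 ± 3.70 before activation, at 1 h and at 2 h. IFNGR2, a chain of the interferon gamma receptor, was at 21.3 ± 0.213, 23.7 ± 0.955 and 60.1 ± 2.69 at the same times. RNF19A, a ubiquitin ligase, was at 73.8 ± 0.950, 77.9 ± 9.10 and 194 ± 17.9. FGFR1, TMEM2 and CDK9, the kinase that releases paused RNA polymerase II, completed the 6 named rises. MYC fell late in the same way, at 243 ± 5.94, 238 ± 19.6 and 110.1 ± 3.78, and so did TXNIP, ZFYVE21, HSPA1B, ZNF248 and LZTS1.

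By the rule that a gene be called up from unactivated to 2 h, up from 1 h to 2 h and down from 2 h to 3 h, 9 genes were highest at 2 h: ID3, SPRY2, CD83, DUSP2, KLF10, MCL1, FRAT2, TGIF2 and INSIG1. DUSP2 went from 521 ± 81.3 at 1 h to 936 at 2 h, and then to 574 ± 44.9 at 3 h and 213 ± 16.5 at 4 h. KLF10 stood at 111 ± 4.33, 305 ± 18.0 and 196 ± 59.8 at 1, 2 and 3 h, and its change from 2 h to 3 h was near the threshold (limma, adjusted p = 0.0491). Not all early genes had this shape. JUNB and NFKBIA were at 83.9 ± 15.0 and 117 ± 19.7 at 1 h, and NFKBIA changed by −1.28 on the log2 scale from there to 2 h (limma, adjusted p = 1.02e-05). The same step in JUNB, −0.14 ± 0.14, was not called (limma, adjusted p = 0.889). DUSP5, PDGFA and NAB1 were still rising, with 521 ± 18.4, 176 ± 9.37 and 1240.1 ± 119 at 3 h. By the mirrored rule 3 genes were lowest at 2 h: ARID5B, a DNA-binding cofactor, ZNF280B, and FBXO5, an inhibitor of the anaphase-promoting complex. ARID5B was at 55.2 ± 10.4 at 1 h, 29.7 ± 2.68 at 2 h and 84.1 ± 14.9 at 3 h. RAG1 went on falling, to 19.4 ± 1.35 at 3 h and 11.8 ± 0.545 at 4 h, while MYB returned from 512 ± 11.4 at 2 h to 756 ± 44.8 at 4 h, near its level before activation.

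**Figure D4:**
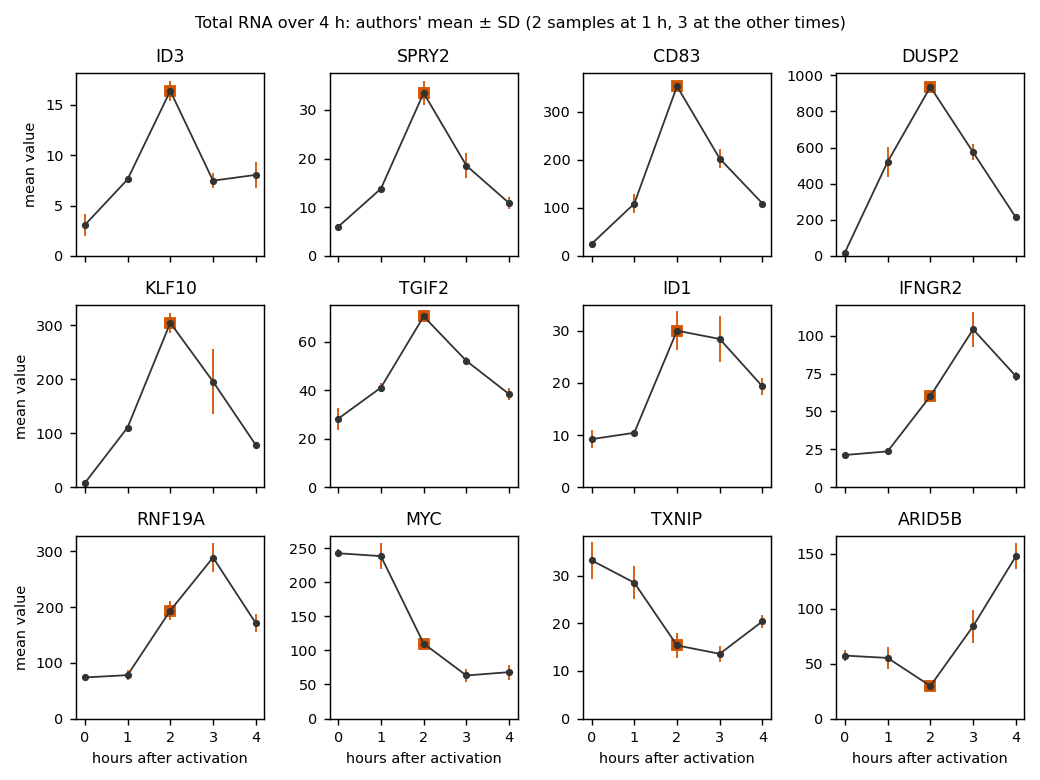
Authors' mean ± SD of 12 genes in total RNA (y axis, expression value from 0) by hours after activation (x axis; 0 h is unactivated, 2 samples at 1 h and 3 at the other times), with the 2 h group as an orange square. ID3, SPRY2, CD83, DUSP2, KLF10 and TGIF2 peak at 2 h, ID1, IFNGR2 and RNF19A leave the baseline after 1 h, MYC and TXNIP drop after 1 h, and ARID5B is lowest at 2 h.

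Labelled RNA shows the newly made part at the same hour. Between unactivated and 2 h cells, 924 genes rose in labelled RNA (12.3%) and 693 fell (9.26%). Of the 727 genes that rose in total RNA, 405 also rose in labelled RNA, which is 55.7% of the first list and 43.8% of the second, 319 were not called there and 3 fell. Of the 268 that fell in total RNA, 179 also fell in labelled RNA (66.8% and 25.8%), 89 were not called and 0 rose, also at an unadjusted p under 0.05. The median labelled change was 0.48 for the genes that rose and −0.75 for those that fell, beside 0.02 over all genes. A called difference between the total and the labelled change, tested in 1 fit over both kinds of RNA, was found for 66 of the rises and 27 of the falls, and for 199 of all genes. The total and labelled samples share replicate letters in their titles, but the fit treated them as independent. RAG1 went from 529 ± 114 to 38.6 ± 3.03 in labelled RNA, a log2 change of −3.74, and RAG2 changed by −3.34. NAB1 changed by 4.32 in labelled and 2.98 in total RNA. In RNF145 the order was the other way, with −0.34 in labelled RNA, which was not called (limma, adjusted p = 0.202), and −1.51 in total RNA; the difference was −1.17 (limma, adjusted p = 0.000475). SRF was similar among the rises, at 54.4 ± 1.81 and 53.3 ± 1.49 in labelled RNA, with a difference of 0.93 between its total and labelled changes (limma, adjusted p = 0.00278).

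The total and labelled calls had opposite directions in 3 genes. HK2 rose by 0.42 in total RNA and fell by 0.50 on the log2 scale in labelled RNA, where it went from 151 ± 6.53 to 107 ± 18.3. CPEB4, a cytoplasmic polyadenylation factor, rose from 29.5 ± 2.21 to 41.7 ± 4.02 in total RNA and went from 58.0 ± 8.07 to 38.3 ± 6.40 in labelled RNA. GLUL, glutamine synthetase, rose from 489.7 ± 31.6 to 608 ± 20.8 in total RNA, a call lost with both recentred scalings, and went from 448 ± 23.3 to 328 ± 55.4 in labelled RNA. The sources used here do not say how labelled values were scaled against total ones.

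**Figure D5:**
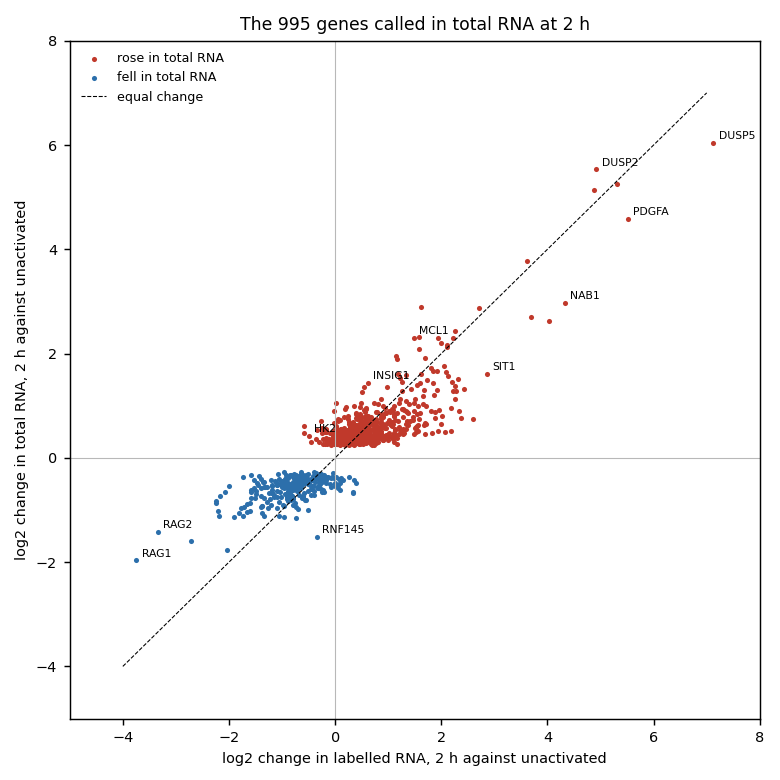
Log2 change at 2 h against unactivated cells in total RNA (y axis) and in labelled RNA (x axis) of the 995 genes called in total RNA, red for 727 that rose and blue for 268 that fell, with a dashed line of equal change. The falls lie mostly to the left of the line (median −0.75 in labelled RNA), RNF145 stands apart to the right, and HK2 is among 3 genes called in opposite directions.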

How the data were processed

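The deposited table gives, per the file headers, an expression signal that the authors normalised, as a mean and an SD for each group. Per the submitters' processing notes, TopHat2, HTSeq and edgeR were used on hg19, with no version recorded there. Whether counting used strand is not stated, so reads of overlapping genes cannot be told apart. The scale is not stated. The total RNA means sum to 958269 before activation and 1037460 at 2 h, so the genes held here were not set to a common sum. Changes are relative to the authors' scaling, whose basis is unknown. Deposited RPKM values, the authors' length-scaled density, served only to compare abundance between genes. The deposited SDs divide by n − 1: at 1 h this gave whole reads for 3166 of 3166 genes tried, and division by n for 13. Libraries were made with ScriptSeq after ribosomal RNA depletion, per the labels' protocols.

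Because the means stand in for single samples, limma 3.58.1 (R 4.3.3) was rebuilt from summaries: means were taken as log2(value + 1), SDs were carried to that scale to first order, and the spread was pooled over the 5 total RNA groups (9 residual degrees of freedom), then moderated with a trend and robustly. The test planned for single-sample values was replaced in this way. The labelled groups were fitted likewise. P-values were adjusted by Benjamini-Hochberg over 7485 genes at 0.05. They rest on the spread between biological replicates. The fit was also run on simulated data that gave a gene the same spread in every group and held no pairing. That run does not cover the higher spread at 3 h.

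Named genes were the 14 largest rises and falls, up to 4 called members of each list in each direction, genes flat at 1 h, genes highest or lowest at 2 h, the 5 called genes highest in RPKM, genes opposite in labelled RNA, and 4 reference genes. Further list members are named with their log2 change only, and were chosen after their values were seen; some members, counted in their lists, are not reported by name here. The comparison, gene lists and rules were chosen with earlier results of these data known. Symbols are as deposited; CRYBG3 fills 2 entries. Alternatives covered the pseudocount, a minimum mean, the groups that give the spread, recentring, the linear scale and the prior variance.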

Additional observations from a re-analysis of the deposited data

Results flagged for a closer look

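The direction of change turned between 2 h and a later hour in 4 genes, all compared with the same unactivated samples. ARID5B, which fell at 2 h, was above its unactivated level by 0.54 at 3 h and by 1.35 at 4 h on the log2 scale. FRAT2, which rose at 2 h, had changed by −0.91 at 4 h, HK2 by −0.47 and DNAJB1 by −0.36, all on the log2 scale. The step from 2 h to 4 h was itself past the threshold in each (limma, adjusted p = 2.57e-10, 4.86e-08, 2.3e-06 and 3.01e-05 in that order).

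In another set of 3 genes, HK2 among them, the change in total RNA and the change in labelled RNA had opposite signs at 2 h. The total change was higher than the labelled change by 1.07 for CPEB4, by 0.92 for HK2 and by 0.76 for GLUL on the log2 scale (limma over both kinds of RNA, adjusted p = 0.00176, 0.00129 and 0.00309). The sources used here do not say how long the cells were labelled, and the part of the labelling time in these differences was not tested.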

How the results depend on the processing

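No paired analysis was possible because the deposited table holds group means and SDs without single samples; for the same reason leaving out each replicate was not run. Of the 995 genes called at 2 h, between 977 and 994 stayed called with a pseudocount of 0.5 or 5, a minimum mean of 5, the compared groups alone, or the spread without the 3 h group; 921 did with a constant prior variance, 782 on the linear scale, 709 with median centring and 701 with quantile normalisation. No named gene reversed.

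With the spread from the compared groups alone, the call count was 1703 (1283 up, 420 down) for 2 h against unactivated cells, 453 (278 up, 175 down) for 2 h against 1 h and 273 (136 up, 137 down) for 3 h against 2 h. Without the 3 h group, whose spread was highest (an alternative chosen after seeing the data), 1479 genes were called at 2 h, 1106 of them up, and 366 (224 up, 142 down) from 1 h to 2 h. Median centring gave 441 up and 437 down and quantile normalisation 433 up. On the linear scale 72 genes rose from 1 h to 2 h. The counts in labelled RNA stayed within 1.5 times. Of 143 named called genes, 17 lost the call on the linear scale, 14 with quantile normalisation, 10 with median centring, 2 with a constant prior variance, and 1, HSPA5, with the compared groups alone and without the 3 h group. Depth is not stated, and counting error was not separated from the spread between samples.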
